A study of Saccharomyces cerevisiae with 12 samples.

Results

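SNR17A and SNR17B are the 2 genes of budding yeast (Saccharomyces cerevisiae) that encode U3, a small nucleolar RNA (snoRNA). The rows of SNR17A and SNR17B were taken by host gene name from the deposited table of splice forms outside the annotation. A form is a stretch of genome, from a first to a last base, that aligned RNA reads skip, with the number of such reads in each library. SNR17A had 42 of the 6195 listed forms, with 186090 of 3455374 reads, and SNR17B had 10 forms with 98 reads. No row for either position was listed under another host.

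U3 is a box C/D snoRNA that does not guide a methyl group onto its target. It base-pairs with the precursor of ribosomal RNA and is needed for the cleavages that release the RNA of the small ribosomal subunit. In yeast both U3 genes carry a spliceosomal intron, which is rare among noncoding RNAs. Most of U3 lies downstream of the intron, and the 3′ part of it folds into the hairpin domain that binds the snoRNP proteins.

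The study profiled ribosomal-RNA-depleted total RNA of 6 strains, with 1 library of each strain at 37 °C and 1 at 25 °C. The strains were prp43-1, set1Δ prp43-1, set2Δ prp43-1, set1Δ, set2Δ and wild type. All were labelled haploid BY4741 derivatives of mating type a that carry his3Δ1, leu2Δ0, met15Δ0 and ura3Δ0. Prp43 is an RNA helicase that takes spliceosomes apart after splicing and also works in ribosome assembly, and prp43-1 is a mutant allele of its gene. Set1 and Set2 are methyltransferases of histone H3. Every culture is described as grown at 25 °C in rich medium, and how long the 37 °C cultures were kept warm is not given.

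Column totals of listed-form reads ran from 214055 to 402886, and SCR1, which encodes the RNA of the particle that targets secretory proteins, took 74.5% to 87.5% of them. These totals count only reads on listed forms, and the depth of the libraries is unknown. Reads on forms of α-specific genes, which a strain of mating type a should not express, stood in 6 libraries labelled mating type a. At 37 °C and 25 °C they numbered 15 and 100 (set2Δ prp43-1), 16 and 61 (set1Δ) and 2 and 38 (set2Δ). The 6 other libraries had 0 such reads and 1 to 3 reads on the a-specific gene STE2. All 5 α-specific genes searched and 2 of 6 a-specific genes had a listed form. Tests of summed reads, and form counts by direction of change for allele and temperature, are therefore also given without the 3 strains with α-specific reads. The tests of within-gene shares were not repeated that way. Both set2Δ strains are among those 3, and wild type and prp43-1 had 0 such reads. SET2 deletion thus cannot be told apart from this marker in the tests below, and could not be tested without those strains.

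SNR17A lies at chrXV:780107-780596 on the plus strand, and SNR17B at chrXVI:281056-281517 on the minus strand, in the R64 build. RefSeq annotates each as 1 exon, so the intron was located from sequence, from GTATGT to the first AG after the single match to GACTAAC. That placed a 157-nt intron at chrXV:780121-780277 in SNR17A and a 130-nt intron at chrXVI:281374-281503 in SNR17B, each after a first exon of 14 nt. The usual yeast branch motif TACTAAC was in neither gene. The introns and 20 bases of exon after them are shown because they are the reference for asking whether any listed form is the U3 intron, with the first 6 bases of the intron, the branch motif and the last 3 bases of the intron in capitals.
SNR17A intron, chrXV:780107-780297, plus strand: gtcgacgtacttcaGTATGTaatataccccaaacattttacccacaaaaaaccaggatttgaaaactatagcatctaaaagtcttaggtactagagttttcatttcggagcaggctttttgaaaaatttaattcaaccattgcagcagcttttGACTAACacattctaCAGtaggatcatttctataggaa
SNR17B intron, chrXVI:281354-281517, minus strand: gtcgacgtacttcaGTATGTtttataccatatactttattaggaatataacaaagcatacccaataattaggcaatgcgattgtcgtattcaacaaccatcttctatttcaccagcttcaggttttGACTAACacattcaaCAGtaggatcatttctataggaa
The branch adenosine, the A before the final C of GACTAAC, lay 12 nt from the 3′ end of both introns. The spliced RNAs, of 333 nt for SNR17A and 332 nt for SNR17B, were identical at 306 of 333 aligned positions (91.9%), including the first 87 bases. The introns were identical at 92 of 158 aligned positions (58.2%).

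The 2 leading SNR17A skips are shown with the stretches of SNR17B that align with them, since the genes are close copies and a read could fit both. Capitals mark the skipped bases, or in SNR17B the bases aligned with them.
SNR17A, 11-nt skip, chrXV:780388-780398: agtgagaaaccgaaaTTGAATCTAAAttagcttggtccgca
SNR17B, aligned stretch: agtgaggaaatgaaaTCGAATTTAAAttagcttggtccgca
SNR17A, 19-nt skip, chrXV:780403-780421: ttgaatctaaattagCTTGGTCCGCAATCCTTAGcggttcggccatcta
SNR17B, aligned stretch: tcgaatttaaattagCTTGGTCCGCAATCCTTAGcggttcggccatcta
SNR17B differed from SNR17A at 2 of the 11 skipped bases, and at 5 of 51 with 20 bases on either side. Across the 19-nt skip SNR17B differed at 0 of 19 bases, and at 3 of 59 with the same flanks. None of the 42 SNR17A skips had its aligned equivalent listed in SNR17B. The next SNR17A skips by reads are shown because they form a second cluster, with first bases 2 nt apart.
SNR17A, 41-nt skip, chrXV:780468-780508: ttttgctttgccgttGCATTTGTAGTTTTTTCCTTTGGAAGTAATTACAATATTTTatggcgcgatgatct
SNR17A, 39-nt skip, chrXV:780466-780504: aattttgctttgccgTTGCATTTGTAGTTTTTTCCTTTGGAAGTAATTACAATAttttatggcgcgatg
SNR17A, 97-nt skip, chrXV:780468-780564: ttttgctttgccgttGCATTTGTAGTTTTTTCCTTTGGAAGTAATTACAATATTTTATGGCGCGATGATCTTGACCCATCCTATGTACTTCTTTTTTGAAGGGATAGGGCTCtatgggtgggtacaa

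The forms of both genes did not look like introns. None of the 42 SNR17A forms and none of the 10 SNR17B forms began with GT and ended with AG, in the listed position or in any placement that gives the same joined sequence. Among the other listed forms 853 of 6143 did so in the listed position, read on either strand, or 13.9%. Equivalent placements were not searched for those forms. The authors' p-value, whose test is not given in the sources used here, was 1 for all 42 SNR17A forms and for 9 SNR17B forms. The tenth SNR17B form had 0.0171. Among the other listed forms 943 had a p-value under 0.05. The build was checked on 944 forms with such a p-value. Of these, 681 read GT and AG on either strand of R64 without a shift, against at most 24 at any shift of up to 10 nt.

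No listed form was the U3 intron itself, from 5′ to 3′ splice site, in either gene. In SNR17A 1 form of 20 nt with 1 read, chrXV:780185-780204, lay within the intron. In SNR17B 1 form ended, as listed, exactly at the 3′ splice site of the intron. Its skip of 102 nt held GACTAAC and began 28 nt downstream of the 5′ splice site. This is the form with the deposited p-value of 0.0171. Its ends share a direct repeat of 2 nt, so the skip can be slid without changing the joined sequence. Only the listed placement ends at the 3′ splice site. The form is shown because no other listed skip has an end at a splice site of either U3 intron, with the skipped bases in capitals.
SNR17B, 102-nt skip, chrXVI:281374-281475, minus strand: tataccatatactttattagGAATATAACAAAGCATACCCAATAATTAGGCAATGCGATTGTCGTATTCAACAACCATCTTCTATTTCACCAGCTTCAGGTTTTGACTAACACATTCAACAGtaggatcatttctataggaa
It had 4 reads in all: 1 in set1Δ prp43-1 at 25 °C, 2 in set2Δ prp43-1 at 25 °C and 1 in set1Δ at 25 °C. The 9 other libraries had 0 reads, a count that allows up to 3 reads each. The skip began with GA where spliceosomal introns begin with GT. Of 423 other listed forms of 90 to 110 nt, 12 held GACTAAC on either strand (2.84%), and 70 held GTATGT (16.5%). GACTAAC lies close to the 3′ splice site, so any skip of this length that ends there must hold it. The 2.84% is therefore background only.

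The SNR17A forms fell in the body of U3 downstream of the intron. Positions in this paragraph count from the first base of the spliced RNA. Skips that began at position 120 or later but before 150 made up 21 forms with 179758 reads. Another 17 forms with 6304 reads began at position 190 or later, 2 forms with 26 reads from 150 up to 190, and 1 form with 1 read before 120. The windows were chosen after the positions were seen. No form touched IRC13, the gene that overlaps the first 78 nt of SNR17A on the same strand. SNR17B forms were spread more thinly: 1 form with 10 reads began before 120, 2 with 12 reads from 120 up to 150, 1 with 21 reads from 150 up to 190, and 5 with 51 reads at 190 or later.

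**Figure D1:**
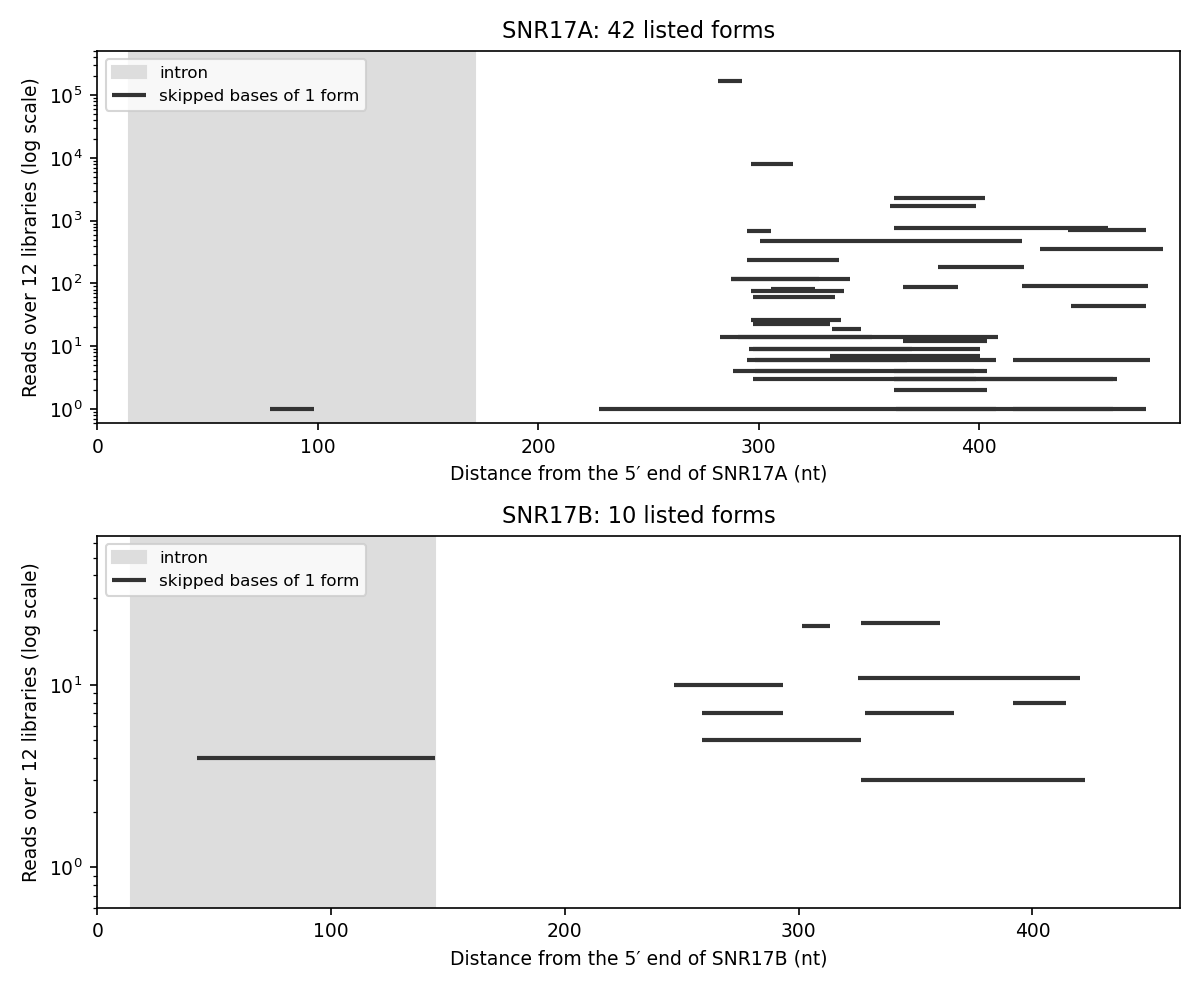
Listed forms of SNR17A (top) and SNR17B (bottom). Each line spans the skipped bases of 1 form, by distance from the 5′ end of the gene in nt, at the height of its reads over 12 libraries on a log scale, and the grey band is the intron. The 11-nt skip of SNR17A, with 169775 reads, stands above all others, and 1 form per gene lies in the intron.

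Skips of SNR17A were short, with a median of 42 nt and a range of 11 to 180 nt, and 22 of 42 were under 50 nt (52.4%), against 36.4% in the rest of the table. The shortest listed form of any gene had 11 nt, and 92 forms had that length. The 6 skips that share the start 780468, 41-nt and 97-nt ones included, held 3117 reads. The ends of a skip can share a direct repeat, so that the skip can be slid without changing the joined sequence. The 11-nt skip was flanked by AAATT, a repeat of 5 nt with 6 equal placements, and the 19-nt skip by TTAGC, also of 5 nt with 6 placements. Forms with a repeat of 4 nt or more were 6 of 42 in SNR17A (14.3%), against 17.2% in the rest of the table, yet they held 95.9% of SNR17A reads against 13.5% of reads in the rest. Through the sum of reads these shares follow the 2 leading forms. Whether the repeats bear on the counts was not tested.

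SNR17A was second among 1937 host genes by reads, after SCR1, and ranked 13 by number of forms, where the median host had 1. Most of its reads came from the 11-nt skip, which ranked 5 among all listed forms with 169775 reads, or 91.2% of SNR17A reads. In set2Δ prp43-1 the 11-nt skip had 18067 reads at 37 °C and 16691 at 25 °C, in prp43-1 8368 and 16105, and in set1Δ prp43-1 17143 and 25941. Among the PRP43 strains, set2Δ had 7089 and 13737 such reads, set1Δ 12072 and 10263, and wild type 9894 and 14405. Every library thus held at least 7089 reads with the same 11 bases skipped.

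The 19-nt skip, the next by reads, had 7999 reads, or 4.30% of SNR17A reads. Its counts at 37 °C and 25 °C were 1030 and 1037 in set2Δ prp43-1, 322 and 647 in prp43-1, and 1140 and 1001 in set1Δ prp43-1. The PRP43 strains had 326 and 717 (set2Δ), 378 and 512 (set1Δ) and 405 and 484 (wild type). These are raw counts, and the columns differ in their totals, so they are not ranked here.

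The second cluster of skips was thinner. The 41-nt skip had 2334 reads, of which the libraries at 37 °C and 25 °C held 204 and 262 (set2Δ prp43-1), 146 and 182 (prp43-1) and 222 and 285 (set1Δ prp43-1). The PRP43 libraries held 97 and 187 (set2Δ), 214 and 115 (set1Δ) and 175 and 245 (wild type). In CPM, which are reads per 1000000 listed-form reads after TMM scaling (a scaling that lines up the bulk of the features between libraries), here over forms, the groups overlapped, with set2Δ prp43-1 at 25 °C highest (853 CPM) and set2Δ at 37 °C lowest (401 CPM). The 39-nt skip at chrXV:780466-780504 had 1699 reads: 159 and 149 (set2Δ prp43-1), 124 and 130 (prp43-1) and 165 and 206 (set1Δ prp43-1), against 81 and 133 (set2Δ), 138 and 116 (set1Δ) and 103 and 195 (wild type). The 97-nt skip had 771 reads: 89 and 97 (set2Δ prp43-1), 50 and 47 (prp43-1) and 74 and 87 (set1Δ prp43-1), against 36 and 62 (set2Δ), 57 and 52 (set1Δ) and 46 and 74 (wild type). In CPM, set2Δ at 37 °C was lowest for both, at 335 CPM for the 39-nt skip and 149 CPM for the 97-nt skip, and the groups overlapped.

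The other 37 SNR17A forms had 1 to 712 reads. In all, 17 forms had reads in each of the 12 libraries, with 185787 reads together, and 13 forms had at least 100 reads. At the low end 17 forms had fewer than 10 reads, and 6 forms had reads in 1 library only. Of those 6, 4 were in prp43-1 at 37 °C, with 7 reads, 1 in prp43-1 at 25 °C and 1 in set2Δ prp43-1 at 37 °C. The prp43-1 library at 37 °C had reads on 38 SNR17A forms, against 22 to 30 in the 11 others, with 9245 SNR17A reads, the second fewest. The form chrXV:780488-780526, of 39 nt, had a distribution unlike that of the leading forms. It had 51 reads at 37 °C in prp43-1 and 43 at 37 °C in set1Δ, against 11 and 13 at 25 °C in the same strains, and 3 to 20 in the 8 other libraries. This form was singled out after its values were seen.

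Summed over all forms, SNR17A reads were higher in the prp43-1 strains than in the PRP43 strains. In set2Δ prp43-1 SNR17A had 19955 reads at 37 °C and 18624 at 25 °C, in prp43-1 9245 and 17395, and in set1Δ prp43-1 19083 and 27997. Among the PRP43 strains, set2Δ had 7786 reads at 37 °C and 15133 at 25 °C, set1Δ 13100 and 11262, and wild type 10789 and 15721. In CPM with TMM scaling over host genes, the 6 prp43-1 libraries ranged from 48115 to 97023, with a median of 65982. The 6 PRP43 libraries ranged from 29902 to 49012, with a median of 41341. Of the prp43-1 libraries 5 stood above every PRP43 library, and the groups overlapped through prp43-1 at 37 °C.

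With edgeR's quasi-likelihood test over 117 host genes, adjusted by the Benjamini-Hochberg method, SNR17A was called higher by 0.79 on the log2 scale (SE 0.22, adjusted p = 0.0281), or 1.73-fold. The test adds the effects of deletion, prp43 allele and temperature, so that libraries of other strains and of the other temperature serve as replicates. It called 13.7% of host genes for the prp43 allele, and 7.69% were called higher. On the host-gene CPM scale, the prp43-1 library was higher in each of the 6 pairs that by label differ only in the prp43 allele. The log2 differences, with 37 °C first, were 0.69 and 0.55 between prp43-1 and wild type, 0.84 and 0.76 between set1Δ prp43-1 and set1Δ, and 1.61 and 0.26 between set2Δ prp43-1 and set2Δ. Of set1Δ prp43-1 and set1Δ, only set1Δ had α-specific reads (16 at 37 °C and 61 at 25 °C), so those pairs also differ in that marker. How many of all tested host genes were higher in all 6 pairs was not counted. With TMM scaling over forms, the 11-nt skip alone was higher in 5 of 6 pairs. At 37 °C it had 38251 CPM in prp43-1 and 40263 CPM in wild type. As a share of reads outside SCR1, without TMM scaling, SNR17A was higher in all 6 pairs. The difference was 0.45 ± 0.35 on the log2 scale (mean ± SD, n = 6 pairs), or 1.36-fold. SNR17A reads are themselves part of that total. As a share of all listed-form reads, SCR1 included, SNR17A was lower in prp43-1 than in wild type at 37 °C. It had 9245 of 282044 reads there, against 10789 of 214055, while all other pairs stayed higher.

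The call for SNR17A depended on which strains were included. It was lost when set1Δ, set2Δ, prp43-1, set1Δ prp43-1 or set2Δ prp43-1 was left out, with log2 fold changes of 0.65 to 1.03 and adjusted p of 0.0599 to 0.263, and held without wild type (1.05, adjusted p = 0.00453). Without TMM factors the change was 0.54 (adjusted p = 0.0766), on a scale where the median host gene stood at -0.34, or 0.88 above that median. Without the 3 strains that had α-specific reads it was 0.20 (SE 0.53, adjusted p = 0.965). Within that comparison only prp43-1 and wild type differ in the prp43 allele alone. The sum without the 11-nt skip gave 0.78 (SE 0.23, adjusted p = 0.0274). Reads of U3 with no skip are not in the table, so more U3 RNA and a larger share of U3 RNA with a skip cannot be told apart. In RNA from whole cultures, fewer cells with such reads and less of this RNA per cell cannot be told apart either.

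**Figure D2:**
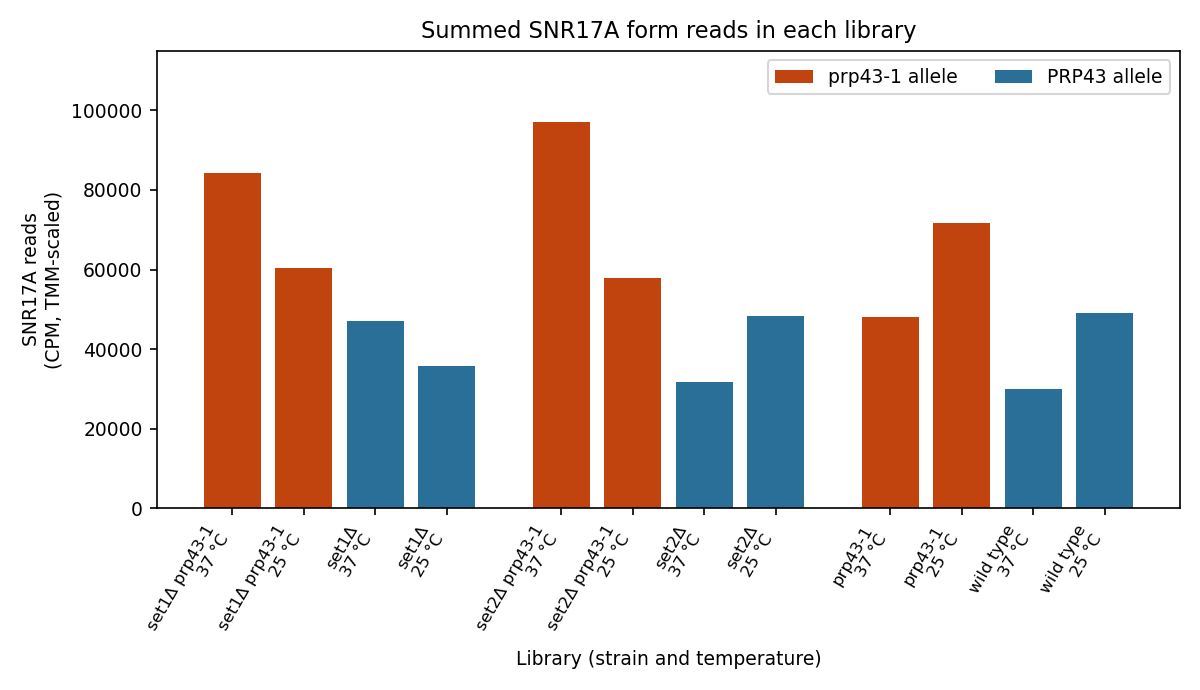
Summed SNR17A reads in each of the 12 libraries, in CPM after TMM scaling over host genes, 1 bar per library with no replicate. Within each group of strains the bars of prp43-1 strains stand left of those of PRP43 strains, and each prp43-1 bar is higher than the PRP43 bar of the same deletion and temperature.

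The other factors gave no call for summed SNR17A reads in the same edgeR test. The log2 fold change was -0.03 (SE 0.22, adjusted p = 0.942) at 37 °C over 25 °C, where 5.13% of host genes were called. By pairs, 37 °C was higher in 3 of 6 strains, with log2 differences of 0.74 (set2Δ prp43-1), 0.48 (set1Δ prp43-1) and 0.40 (set1Δ), against -0.58 (prp43-1), -0.60 (set2Δ) and -0.71 (wild type). The strains thus moved in both directions with temperature. Deletion of SET1 gave 0.17 (SE 0.27, adjusted p = 0.995) and deletion of SET2 gave 0.20 (SE 0.27, adjusted p = 0.975). The SET2 value cannot be told apart from the difference in α-specific reads. For both deletions 0.0% of host genes were called, with 6 and 9 of 117 at an unadjusted p under 0.05. The difference between the effect of prp43-1 at 37 °C and at 25 °C was 0.55 (SE 0.44, adjusted p = 0.608), and 0.0% of host genes were called for this interaction.

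The order of the 12 libraries by SNR17A share of reads outside SCR1 put set2Δ prp43-1 at 37 °C first, at 42.4% (95% Wilson interval 42.0% to 42.9%). It was followed by prp43-1 at 25 °C at 35.4% and set1Δ prp43-1 at 37 °C at 35.2%, whose intervals overlapped. At the low end set2Δ at 37 °C had 19.9% and wild type at 37 °C had 19.7%, again with overlapping intervals. Intervals overlapped for 5 of the 11 pairs of neighbours. They cover at most counting error, and less than that where amplified copies of 1 molecule count as separate reads. The spread of this share between the 12 libraries was far wider, with an SD of 6.83 percentage points around a mean of 29.1%. That SD includes any effect of strain and temperature. In the edgeR test, on another scale, the biological coefficient of variation was 40.9% over host genes.

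At the level of single forms, 15 SNR17A forms and no SNR17B form passed the filter on low counts and entered the edgeR test over 451 forms. All 15 fold changes for prp43-1 over PRP43 were above 0, against 44.3% of all tested forms, with a median of 0.52 against -0.06 on the log2 scale. Without the 3 strains that had α-specific reads, 11 of 15 were above 0, against 47.4% of all tested forms. The 15 forms are skips of 1 RNA and are not independent. None passed an adjusted p of 0.05, while 3.99% of all tested forms did, and 7 of the 15 had an unadjusted p under 0.05, against 6.43% of all tested forms that were higher with such a p. DESeq2 called 3 of the 15, and 8.43% of all forms it tested. With library sizes taken without SCR1, edgeR called 1 of 16 SNR17A forms, the 19-nt skip, and 4.95% of all tested forms. Without the low-count filter it called the same skip, 1 of 42 SNR17A forms, and 0.68% of all tested forms.

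The 19-nt skip had the lowest adjusted p of the 15. Its level in CPM was 1472 to 4186 in the prp43-1 libraries, with a median of 3122, and 1195 to 2597 in the PRP43 libraries, with a median of 1498. CPM in this paragraph are scaled over forms and cannot be set against the summed CPM above, which are scaled over host genes. On the log2 scale the difference was 0.82 (SE 0.23, adjusted p = 0.0654 by edgeR), and it was higher in 5 of 6 pairs. The 11-nt skip had 38251 to 74286 CPM in the prp43-1 libraries and 29291 to 49764 in the PRP43 libraries, and was also higher in 5 of 6 pairs. For this skip edgeR gave a difference of 0.57 on the log2 scale (SE 0.18, adjusted p = 0.0816). The groups overlapped for both skips. The 54-nt skip at chrXV:780394-780447, with 117 reads, had the largest value of the 15, at 1.37 (SE 0.42, adjusted p = 0.0745 by edgeR). For the 41-nt, 39-nt and 97-nt skips the values were 0.34 (SE 0.19), 0.31 (SE 0.16) and 0.42 (SE 0.19). With DESeq2 the 19-nt skip (0.86, adjusted p = 0.00832) and the 11-nt skip (0.61, adjusted p = 0.0180) were among the forms called, and the 54-nt skip was the third SNR17A form.

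For 37 °C over 25 °C 14 of the 15 fold changes were below 0, against 52.3% of all tested forms, with a median of -0.27 against -0.03. Without the 3 strains that had α-specific reads, 10 of 15 were below 0, against 50.6% of all tested forms. None was called and 0 had an unadjusted p under 0.05, where edgeR called 7.98% of all tested forms and 23.5% had such a p, and DESeq2 called none of the 15 and 12.7% of the 442 forms to which it gave an adjusted p. The exception in direction was the 39-nt skip chrXV:780488-780526 described above, at 1.22. For deletion of SET1 9 of 15 were above 0, against 47.5% of all tested forms, and for deletion of SET2 8 of 15, against 45.0%. None of the 15 was called for either deletion by edgeR or by DESeq2, and each tool called 0.0% of all tested forms. At an unadjusted p under 0.05 there was 1 of 15 for SET1, against 3.33% of all tested forms, and 0 of 15 for SET2, against 3.77%. Neither tool called any of the 15 for the interaction of allele and temperature, where edgeR called 0.0% of all tested forms and DESeq2 0.222%. At an unadjusted p under 0.05 there were 0 of 15, against 10.6%.

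**Figure D3:**
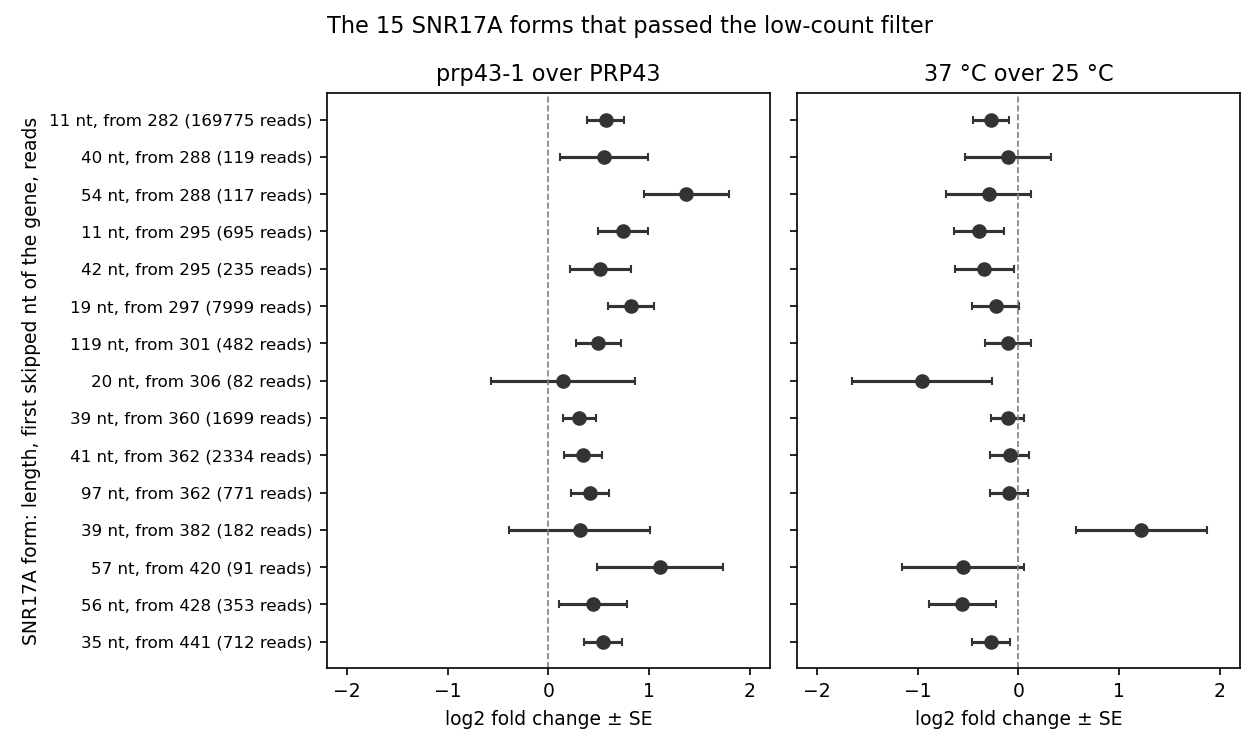
Log2 fold changes with standard errors from edgeR for the 15 SNR17A forms that passed the filter on low counts, for prp43-1 over PRP43 (left) and 37 °C over 25 °C (right), ordered by first skipped nt of the gene. All 15 lie above 0 on the left and 14 lie below 0 on the right, and no form passed an adjusted p of 0.05 in either panel.

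The share of the 11-nt skip within SNR17A reads hardly varied. It was 89.6% to 92.7% in the prp43-1 libraries and 90.8% to 92.2% in the PRP43 libraries. In prp43-1 it was 90.5% (95% Wilson interval 89.9% to 91.1%) at 37 °C and 92.6% (92.2% to 93.0%) at 25 °C. In set1Δ prp43-1 it was 89.8% at 37 °C and 92.7% at 25 °C, also with intervals that do not overlap. The remaining 4 strains moved by 0.0755 to 1.02 percentage points, all upward at 37 °C. The mean difference in log2 odds was -0.07 ± 0.27 (SD, n = 6 pairs) for prp43-1 over PRP43, with an exact sign-flip permutation p of 0.531, two-sided. For 37 °C over 25 °C it was -0.08 ± 0.29 (SD, n = 6 pairs), with an exact p of 0.563. For deletion of SET1 it was -0.02 ± 0.09 (SD, n = 4 pairs, exact p = 0.625), and for deletion of SET2 -0.20 ± 0.23 (SD, n = 4 pairs, exact p = 0.25). With 6 pairs the smallest possible p is 0.0312 and with 4 pairs 0.125, so that the deletions could not pass 0.05. The 6 pairs for the prp43 allele are 3 strain pairs, each at both temperatures, and the deletion pairs reuse strains in the same way. Such pairs are not independent, though the test treats them so, and its p-values for these factors are not exact. Adjusted over the 12 share tests made for both genes, the lowest p was 0.938.

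**Figure D4:**
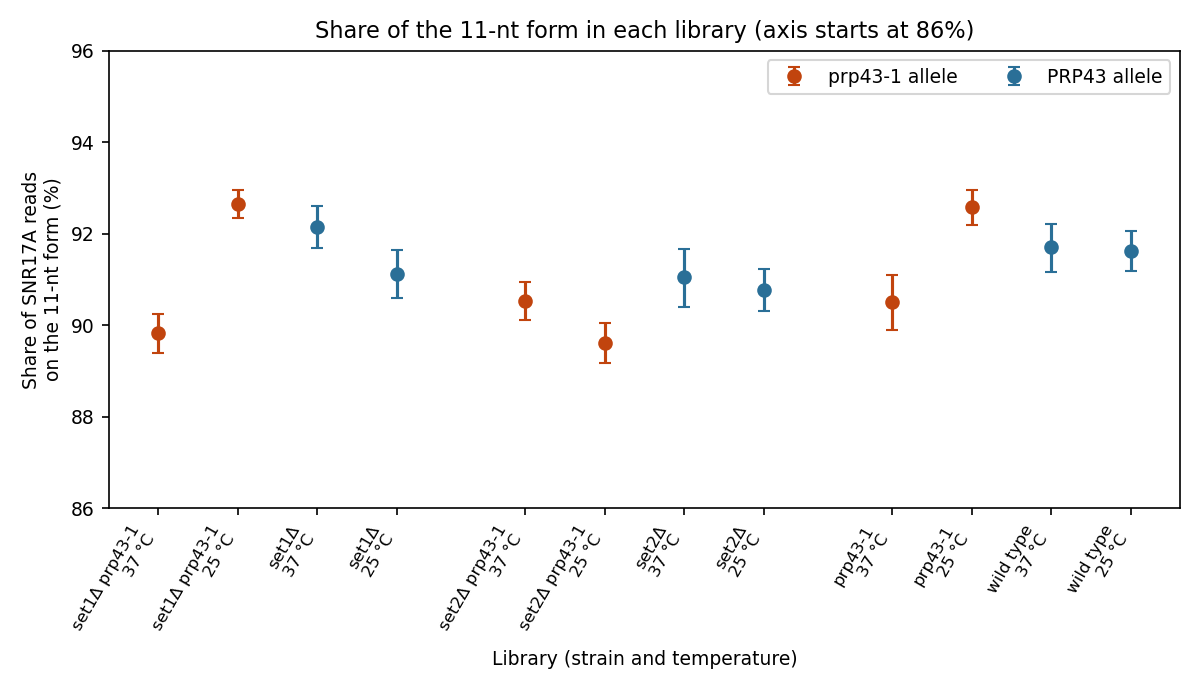
Share of SNR17A reads on the 11-nt skip in each library, in percent, with 95% Wilson intervals that cover at most counting error. The axis starts at 86%. All 12 shares lie between 89.6% and 92.7%, and prp43-1 and set1Δ prp43-1 are lower at 37 °C than at 25 °C.

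SNR17B forms were rare: 98 reads over all libraries, against 186090 for SNR17A, which places the gene at rank 103 among host genes. In set2Δ prp43-1 SNR17B had 7 reads at 37 °C and 8 at 25 °C, in prp43-1 13 and 7, and in set1Δ prp43-1 4 and 17. Among the PRP43 strains, set2Δ had 2 reads at 37 °C and 9 at 25 °C, set1Δ 5 and 14, and wild type 3 and 9. The groups overlapped for both factors. The ratio of SNR17A to SNR17B reads ran from 711 in prp43-1 at 37 °C to 4771 in set1Δ prp43-1 at 37 °C. It is given without a test, because it rests on as few as 2 SNR17B reads in a library.

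The first of the SNR17B skips shown here are those with most reads, and the 47-nt skip is shown for its overlap with the stretches that align with SNR17A's leading skips, with the skipped bases in capitals and the RNA strand read 5′ to 3′.
SNR17B, 34-nt skip, chrXVI:281158-281191: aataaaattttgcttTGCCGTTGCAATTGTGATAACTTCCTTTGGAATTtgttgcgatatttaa
SNR17B, 12-nt skip, chrXVI:281205-281216: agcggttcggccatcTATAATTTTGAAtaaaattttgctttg
SNR17B, 47-nt skip, chrXVI:281225-281271: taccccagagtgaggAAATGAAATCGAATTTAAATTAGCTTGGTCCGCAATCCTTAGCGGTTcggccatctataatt
The 34-nt skip, with 22 reads, had 1 read at 37 °C and 0 at 25 °C in set2Δ prp43-1, 3 and 3 in prp43-1, and 1 and 4 in set1Δ prp43-1. The PRP43 strains had 2 and 2 (set2Δ), 1 and 1 (set1Δ) and 0 and 4 (wild type). The 12-nt skip, with 21 reads, had 1 and 2 in set2Δ prp43-1, 0 and 3 in prp43-1, and 1 and 4 in set1Δ prp43-1. The PRP43 strains had 0 and 2 (set2Δ), 0 and 7 (set1Δ) and 0 and 1 (wild type). It thus had 2 of its 21 reads at 37 °C, a split seen only after the counts were examined and too thin for the form-level test. The 47-nt skip, with 10 reads, 1 or 2 in each of 7 libraries, spans the bases that align with both leading SNR17A skips. The 95-nt skip had 11 reads, of which 4 were in set2Δ prp43-1 at 25 °C and 1 in each of 7 other libraries. The 23-nt skip had 8 reads, 1 or 2 in each of 6 libraries. The 4 further forms outside the intron had 3 to 7 reads, and the 68-nt one among them had all its 5 reads in prp43-1 at 37 °C.

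**Figure D5:**
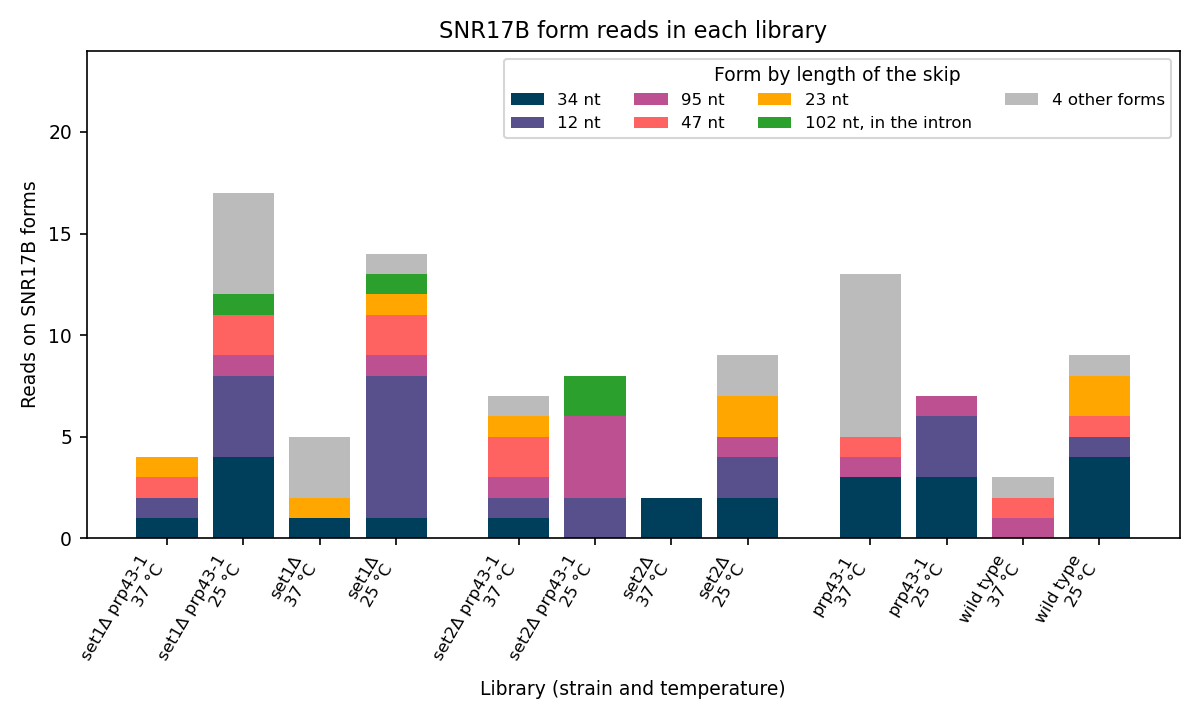
Reads on SNR17B forms in each of the 12 libraries, stacked by form. The bars reach 17 reads at most, in set1Δ prp43-1 at 25 °C, and the form in the intron has reads in 3 libraries, all at 25 °C.

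No SNR17B difference was detectable at this depth. With edgeR over host genes the log2 fold change of its summed reads was 0.67 (SE 0.53, adjusted p = 0.503) for prp43-1 over PRP43 and -0.51 (SE 0.53, adjusted p = 0.537) for 37 °C over 25 °C. It was -0.08 (SE 0.64) for deletion of SET1, -0.40 (SE 0.65) for deletion of SET2 and 1.92 (SE 1.01, adjusted p = 0.413) for the interaction of allele and temperature. The share of the 34-nt skip within SNR17B reads differed by -0.64 ± 2.35 in log2 odds between prp43-1 and PRP43 (SD, n = 6 pairs, exact sign-flip permutation p = 0.594), and by 0.68 ± 2.32 between 37 °C and 25 °C (exact p = 0.5). For the form at the 3′ splice site the values were -0.05 ± 1.72 (exact p = 0.969) and -0.00 ± 1.62 (exact p = 1). The pseudocount of 0.5 read weighs heavily in these values, and the pairs for the prp43 allele are not independent, as above.

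Genes that make or work with U3, other snoRNAs or Prp43 had few forms in the table. Of 30 genes on the list, 10 had a listed form, with 51 forms and 11818 reads, and 1 was tested. Of the U3 snoRNP proteins, NOP1, the methyltransferase fibrillarin, had 8 forms with 66 reads, and the scaffold protein gene NOP56 had 4 forms with 6 reads. Its partner NOP58 had 1 form with 0 reads, and the genes SNU13 and RRP9, whose proteins also bind U3, had none. Proteins that join U3 in the small-subunit processome had forms in 5 of 10 genes with 7 reads in all. Of 8 genes listed for snoRNA maturation, not all of them specific to U3, 1 had listed forms. It was RNT1, which encodes the RNase that trims U3 precursors, with 1 read. None of 4 genes for protein partners of Prp43 and none of 5 spliceosomal snRNA genes had a form.

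SNR30, a box H/ACA snoRNA also needed to process small-subunit ribosomal RNA, was the 1 gene of the list that was tested, with 29 forms and 11738 reads. In set2Δ prp43-1 SNR30 had 1019 reads at 37 °C and 1203 at 25 °C, in prp43-1 1628 and 1280, and in set1Δ prp43-1 1116 and 1275. Among the PRP43 strains, set2Δ had 266 and 579 reads, set1Δ 976 and 475, and wild type 492 and 1429. It rose in the prp43-1 strains by 1.11 on the log2 scale (SE 0.31, adjusted p = 0.0281 by edgeR), and was called for no other factor. The call was lost without TMM factors, without set2Δ, prp43-1 or set2Δ prp43-1, and without the 3 strains that had α-specific reads, with log2 fold changes of 0.81 to 1.21 and adjusted p of 0.0523 to 0.386. SNR10 and SNR128, which encodes snoRNA U14, had no form.

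The host genes whose summed reads followed SNR17A most closely over the 12 libraries, of 99 with at least 100 reads, were the snoRNA genes snR8 (Pearson r = 0.88), snR190 (r = 0.87) and snR46 (r = 0.85). For SNR17B they were UTH1 (r = 0.81), RPL5 (r = 0.74) and CDC19 (r = 0.67). The correlations are on the scale of log2(CPM + 1), the libraries share their scaling factors across all genes, and SNR17B has 98 reads in all, so the values are descriptions only.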

How the data were processed

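Reads were obtained from rRNA-depleted total RNA with a TruSeq library kit, per the labels' protocols. CASAVA, STAR 2.4.0 and the build sacCer3 are named in the submitters' processing notes, without roles. The authors deposited 1 table with a count of reads per form and library, raw per the file headers and the whole-number values, and 1 p-value per form, which the authors deposited without naming its test. The 12 count columns each matched 1 sample title, and 0 columns were left over. Forms without a host gene (29, with 0.00330% of reads) were left out of library sizes and tests.

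Counts were summed per host gene, or kept per form, and tested with edgeR 4.0.16 in R 4.3.3 (filterByExpr, TMM factors, quasi-likelihood F test, Benjamini-Hochberg over all features tested, threshold 0.05). The model was deletion + prp43 allele + temperature over 12 libraries, and the interaction of allele and temperature was added for its test. Each condition had 1 library, so the p-values measure the spread between libraries under additive effects. No label pairs libraries beyond strain and temperature. TMM factors ran from 0.648 to 1.69 over host genes and from 0.776 to 1.19 over forms. Within-gene shares were compared as log2 odds with a pseudocount of 0.5 read. An exact sign-flip permutation test was run over pairs of libraries that differ in 1 labelled factor. For the allele and the deletions, pairs of the same strains at both temperatures are not independent, and the test does not account for this. Sequences, the intron search and alignments used the R64 genome of RefSeq with Biopython 1.88. On simulated counts with 4-fold changes between prp43-1 and PRP43, the test over 430 forms recovered 100% of 141 changed forms with 5 false calls. For prp43-1 over PRP43 the 15 tested SNR17A forms had smaller fold changes, of 0.15 to 1.37 on the log2 scale. Recovery at such sizes was not tested.

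DESeq2 1.42.0, other scalings and filters and leaving out strains were alternatives. The members and gene lists were chosen with earlier results of these data known. Named with values in each library, or with ranges, were forms that touch a splice site of the intron, the 5 forms of each gene with most reads and any form past the threshold. The 3 host genes of most similar pattern were named for each gene, and list genes past the threshold or among the 3 with most reads. The sum without the 11-nt skip and the fits without the strains with α-specific reads were added after the data were seen.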

Additional observations from a re-analysis of the deposited data

How the results depend on the processing

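Fits without TMM factors, with library sizes without SCR1, without the low-count filter, with DESeq2, with genotype as a block (temperature only) and without each strain in turn were run. Without TMM factors the median host gene moved from its place near 0 to -0.34 for prp43-1 and -0.38 for temperature. Without the low-count filter it stood at 0.81 for temperature. The causes of the changes below were not tested. All values are log2 fold changes, log2 odds differences or counts.

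For summed SNR17A reads, prp43-1 over PRP43 gave 0.54 without TMM factors and 0.20 without the strains with α-specific reads, both no longer called, and 0.65 to 1.05 with 1 strain left out. The counts of SNR17A forms called for prp43-1 were 1 of 16 with library sizes without SCR1 and 1 of 42 without the low-count filter (the 19-nt skip in both), and 3 of 15 with DESeq2, against 0 of 15. Those fits called 4.95%, 0.68% and 8.43% of all forms tested. They stayed at 0 without any 1 strain. With genotype as a block the temperature effect on SNR17A was -0.04. Without the strains with α-specific reads, SNR17A gave -0.24 for temperature, 0.54 for SET1 deletion and 0.28 for the interaction. SNR17B then gave 1.05 for prp43-1, -0.38 for temperature, -0.59 for SET1 deletion and 1.49 for the interaction. None of these values was called.

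The remaining changes are turns of sign in effects that no setting called. For SNR17A and temperature they were 0.025 with DESeq2 and 0.10 without the 11-nt skip, and -0.18 to 0.15 with 1 strain left out. Leaving out 1 strain gave -0.20 to 0.51 for SET1 deletion and -0.13 to 0.61 for SET2 deletion. The SNR17A interaction was -0.26 without TMM factors. SNR17B for SET1 deletion was 0.082 without TMM factors, 0.021 without the filter and -0.53 to 0.52 with 1 strain left out, and for SET2 deletion -0.70 to 0.12.

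The 11-nt skip for SET2 deletion was 0.070 without TMM factors, 0.064 without the filter, 0.025 with DESeq2 and -0.092 to 0.12 with 1 strain left out. For SET1 deletion it was -0.0051 to 0.23. Its interaction was 0.088 without the filter, 0.0080 with DESeq2 and -0.49 to 0.39 with 1 deletion status left out. Its share by temperature was -0.14 to 0.0029 with 1 strain left out. For SNR17B shares, the 34-nt skip by temperature was -0.087 with reads of both genes as denominator. With 1 strain left out it was -1.45 to 0.77 for prp43-1 and -2.13 to 1.92 for SET2 deletion. The skip at the 3′ splice site by temperature was 0.24 with a pseudocount of 1 and -0.39 to 0.50 with 1 strain left out, and -0.40 to 0.32 for prp43-1. Depth limits SNR17B, with at most 17 reads per library.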
